A study of Homo sapiens with 9 samples.

Results

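Ribosome biogenesis and MYC target genes were followed as a set of 32 genes in the colon cancer cell line HCT-116, which is an established human line. The 32 genes were chosen by name, with earlier results of these data known, and each had a row in both deposited gene tables. The tables list 32449 genes in all, of which 29612 are in both. RNA was sequenced from 9 libraries in 3 groups of 3. Cells of the ORF group stably expressed a peptide-coding open reading frame found in LINC00266-1, which is annotated as a long intergenic non-coding RNA. The MT group is labelled 5'UTR-ORFmut, a stably expressed construct with the 5' UTR and a reading frame whose ATG start codon was mutated to ATT. The NC group carried a blank vector. All groups are the same parental line, and no source used here says whether a group is 1 clone or a pool, or whether replicates were separate cultures. The p-values therefore cover the spread among these samples alone, and that spread may be technical.

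Libraries held 19.5 to 24.4 M (mega) reads. LINC00266-1 had 9951, 10229 and 10310 reads in the ORF libraries, 1, 0 and 0 reads in libraries labelled MT, and 1, 0 and 0 reads in the NC libraries. The MT libraries thus showed no more reads of the reading frame's gene than NC did, against their label, and they are called the libraries labelled MT here. Of 10 colon epithelial markers 6 reached 1 read per M reads (CPM), with VIL1, GPA33 and CDH17 below it and CDX1 not listed. The summed level of these markers was 4847 to 6420 CPM in ORF, 4992 to 6625 CPM in libraries labelled MT and 4747 to 5382 CPM in NC. Blood cell markers summed to at most 1.17 CPM in any library, and hepatocyte markers to at most 3.82 CPM. Of 8 fibroblast markers 1, COL1A1, reached 1 CPM. Their sum was 20.1 to 21.1 CPM in ORF, below all other libraries, 27.2 to 30.8 CPM in libraries labelled MT and 23.4 to 29.8 CPM in NC, and its part in the results was not tested.

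Ribosomes are built in the nucleolus. RNA polymerase I transcribes the precursor of the ribosomal RNAs, small nucleolar ribonucleoproteins (snoRNPs) guide its chemical modification, and large sets of assembly factors fold and cleave it into the small and the large subunit. MYC, a transcription factor that is frequently overactive in colon cancer, binds the E-box motif CACGTG and is known to raise many of these genes, together with genes of polyamine, nucleotide and methyl donor synthesis. The 32 members fall into RNA polymerase I transcription (POLR1A, POLR1B, UBTF, MYBBP1A), snoRNPs (FBL, NOP56, NOP58, DKC1, NHP2, NOLC1), small subunit assembly (RRP9, WDR43, RRP12, BYSL), large subunit assembly (BOP1, PES1, WDR12, RRS1, PPAN, NOP16, NOP2, NIP7, GRWD1, DDX21), other nucleolar proteins (NCL, NPM1, GNL3, LYAR) and metabolic MYC targets (ODC1, SRM, CAD, MAT2A).

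The E-box is what many of these promoters share in sequence. RefSeq promoter windows, from 250 bases before to 50 after the annotated start (GRCh38.p14), were found for 27 of the 32 members. CACGTG, which reads the same on both strands, occurred in 12 of the 27 (44.4%). It occurred in 8.78% of all 27305 genes with a window and in 7.26% of all 35116 windows of that length. Among the 12723 genes with a window that were tested in ORF over NC, the share was 11.8%. The windows of 7 members are shown, with CACGTG in capitals, because these genes recur in the results that follow.
SRM: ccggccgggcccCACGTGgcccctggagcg
ODC1, upstream copy: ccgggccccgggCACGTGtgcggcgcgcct
ODC1, downstream copy: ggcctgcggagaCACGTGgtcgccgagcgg
RRP9: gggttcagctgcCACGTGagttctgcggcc
DDX21: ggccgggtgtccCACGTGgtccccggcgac
GNL3: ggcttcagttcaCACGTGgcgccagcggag
FBL: tgcgctcttttcCACGTGcgaaagccccgg
PES1: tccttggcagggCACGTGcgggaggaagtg
The SRM stretch lies at chr1:11060200-11060229 on the minus strand. The ODC1 stretches lie at chr2:10448024-10448053 and chr2:10447990-10448019, both on the minus strand. RRP9 is at chr3:51941892-51941921 (minus), DDX21 at chr10:68956604-68956633 (plus) and GNL3 at chr3:52686026-52686055 (plus). FBL is at chr19:39846356-39846385 (minus) and PES1 at chr22:30591880-30591909 (minus). ODC1 is the only one of the 12 with more than 1 copy in its window. A match is a description of the letters and not evidence of binding.

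MYC itself was not among the genes called. Its normalized reads (reads scaled to a common depth over all 9 libraries) were 9125, 7704 and 8553 in ORF, 7974, 8336 and 7899 in libraries labelled MT, and 8183, 8060 and 7375 in NC. ORF overlapped both other groups. The log2 fold change of ORF over NC was 0.10 ± 0.13 (SE), with a limma adjusted p of 0.727.

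The comparison of ORF with NC asks what differs in the cells that express the peptide-coding reading frame. ORF libraries also differed in PKM, a pyruvate kinase gene, with a log2 fold change of 4.23 ± 0.21 over NC (limma adjusted p 2.8e-06). Over the libraries labelled MT it was 4.03 ± 0.26 (limma adjusted p 2.9e-05). The part of PKM in the results was not tested. Most member genes had more RNA in ORF libraries. Of 32, 28 had a positive log2 fold change over NC, where 46.2% of all genes tested did. Members also moved together within NC: 30 lay above the NC mean in replicate 1, 24 in replicate 2 and 6 in replicate 3. In ORF these counts were 24, 24 and 30 in the same order, so the 32 genes are not independent. The median member log2 fold change was 0.28, against -0.04 over all 24662 genes tested. The assembly factor RRP12 (log2 fold change 0.80) and ODC1, the rate-limiting enzyme of polyamine synthesis (0.60), had the highest values. None of the 32 passed the limma test at an adjusted p below 0.05, where 0.377% of all genes were called higher and 0.418% were called in either direction. At an unadjusted p below 0.05, 10 members were higher and 0 lower, beside 8.06% and 7.62% of all genes. In RNA from whole cultures, a change in how much RNA each cell holds and a change in which cells are present cannot be told apart.

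**Figure D1:**
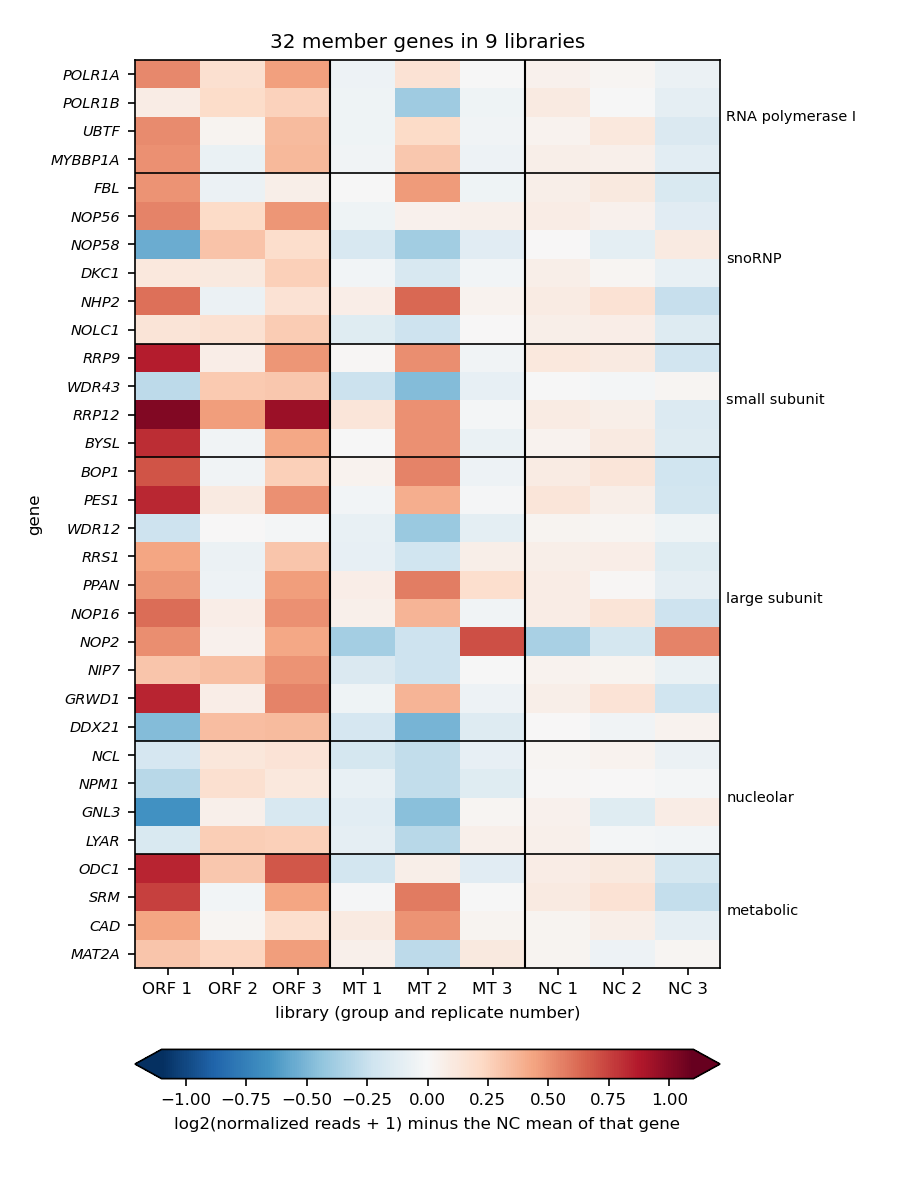
Level of each member gene (rows, grouped by role) in each library (columns, with MT as labelled), as log2(normalized reads + 1) minus the mean of the 3 NC libraries. RRP12 is high in all 3 ORF libraries, while RRP9, PES1 and GRWD1 are high in ORF replicates 1 and 3, and DDX21, NOP58 and WDR43 are low in ORF replicate 1 and in replicate 2 labelled MT.

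Small subunit assembly had the highest median of the role groups in ORF over NC, 0.43 over its 4 genes. RRP12, a factor needed for export and maturation of pre-ribosomes (chr10:97356358-97426076, minus strand, GRCh38), had 3433, 2331 and 3248 normalized reads in ORF, 1862, 2408 and 1668 in libraries labelled MT, and 1802, 1769.7 and 1526 in NC. All ORF libraries exceeded all NC libraries, while the highest library labelled MT exceeded the lowest ORF library. The log2 fold change of ORF over NC was 0.80 ± 0.16 (SE, 1.74-fold) and its limma adjusted p was 0.061. In the authors' deposited table RRP12 has a log2 fold change of 0.82 and an adjusted p of 0.000449. RRP9, a protein of the U3 snoRNP (chr3:51933430-51941941), had 4171, 2412 and 3210.4 normalized reads in ORF, 2316, 3273 and 2236 in libraries labelled MT, and 2491, 2451 and 1978 in NC. ORF replicate 2 lay among the NC libraries, and the log2 fold change of 0.47 ± 0.19 had a limma adjusted p of 0.267. WDR43, which acts early on the small subunit precursor, had 1939, 2885 and 2913 normalized reads in ORF, 2006, 1703 and 2226 in libraries labelled MT, and 2363, 2338 and 2407 in NC. Here ORF replicate 1 was below every NC library and the other two were above, so that the log2 fold change of ORF over NC was 0.09 ± 0.16. BYSL, the fourth of this group, stood at 0.40 ± 0.19.

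The metabolic targets had a median log2 fold change of 0.36 in ORF over NC. ODC1 (chr2:10439968-10448504, minus strand) had 20601, 14149 and 18505 normalized reads in ORF, 10002, 12052 and 10564 in libraries labelled MT, and 12198, 12420.3 and 10064 in NC. Every ORF library was above every library of the other groups. The log2 fold change over NC was 0.60 ± 0.16 (1.52-fold) with a limma adjusted p of 0.133, and in the authors' deposited table it is 0.61 with an adjusted p of 0.0155. Per kb of gene model, ODC1 averaged 5981 ± 1109 normalized reads in ORF, 3663 ± 357 in libraries labelled MT and 3895 ± 438 in NC (SD, n = 3 each), the highest level of its role group. SRM, which makes spermidine downstream of ODC1, stood at 0.38 ± 0.19 over NC. MAT2A, which makes the methyl donor S-adenosylmethionine, stood at 0.33 ± 0.12, and CAD, the enzyme that starts pyrimidine synthesis, at 0.21 ± 0.14.

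**Figure D2:**
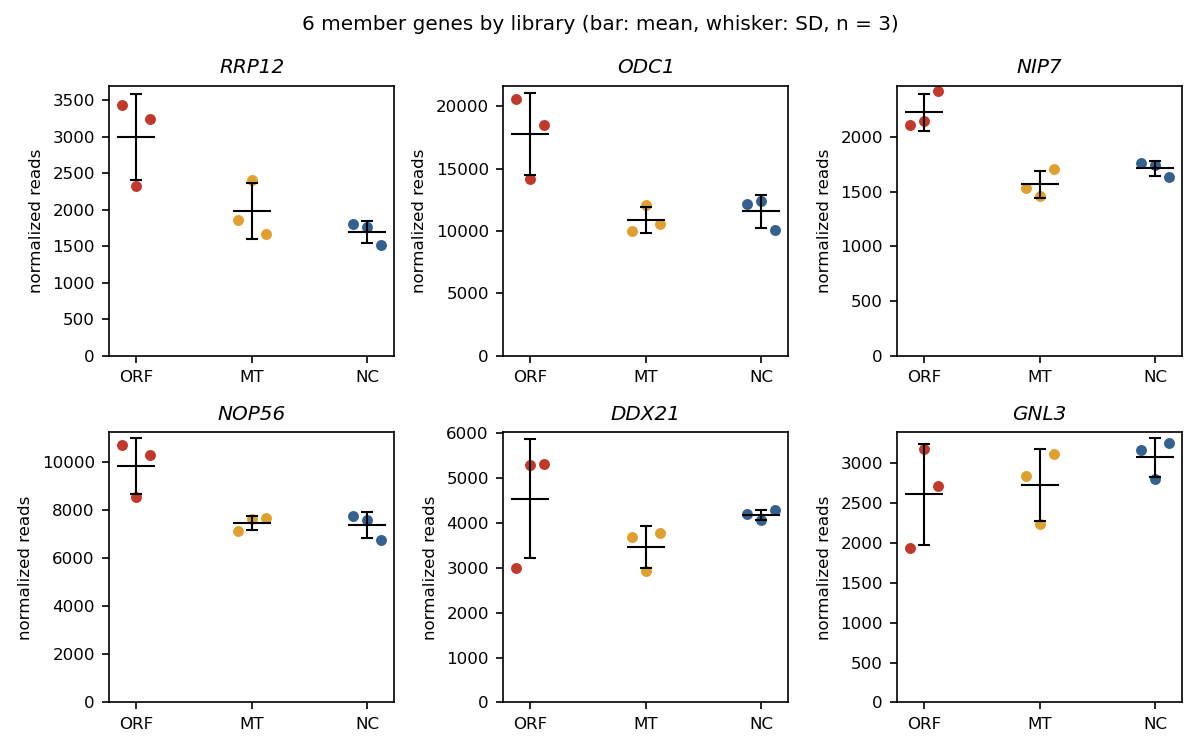
Normalized reads of 6 member genes in each library (points), with the mean (bar) and SD (whisker) of the 3 libraries of ORF, MT as labelled, and NC, on axes that start at 0. ODC1, NIP7 and NOP56 lie higher in every ORF library than in any other library, whereas 1 ORF library of DDX21 and of GNL3 lies far below the other two ORF libraries.

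Among the 10 large subunit factors the median log2 fold change was 0.31 in ORF over NC, and 9 of 10 were positive. NOP2, at 0.32 ± 0.31, is 1 of these positives and lies next to the median, and its gene-level value is in doubt, as given below. GRWD1, a chaperone of a large subunit protein (chr19:48445773-48457022), had 5575, 3266 and 4539 normalized reads in ORF, 3004, 4024 and 2989.6 in libraries labelled MT, and 3259.6, 3456 and 2673 in NC. ORF replicate 2 again lay among the NC libraries. The log2 fold change was 0.48 ± 0.19 with a limma adjusted p of 0.256. PES1 and BOP1, partners in the PeBoW complex that matures the large subunit RNA, stood at 0.48 ± 0.18 and 0.30 ± 0.18 over NC. BOP1 had 13696, 8260.3 and 10181 normalized reads in ORF, 8683, 12397 and 8139 in libraries labelled MT, and 9029, 9269 and 7268 in NC, so the groups overlapped. WDR12, the other PeBoW member, had 1602, 1882 and 1842 normalized reads in ORF, 1766, 1409 and 1741 in libraries labelled MT, and 1906, 1903 and 1809 in NC. Its log2 fold change of -0.08 ± 0.12 was the one negative value of the large subunit group. DDX21, an RNA helicase of the nucleolus, had 3007, 5294 and 5329 normalized reads in ORF, 3690.2, 2931 and 3788 in libraries labelled MT, and 4193, 4076 and 4288 in NC. ORF replicate 1 was below all NC libraries and ORF replicates 2 and 3 were above them, and the log2 fold change of ORF over NC was 0.07 ± 0.20.

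NIP7, placed here among the large subunit factors, had 2111, 2146 and 2416 normalized reads in ORF, 1533, 1464 and 1703 in libraries labelled MT, and 1762, 1742 and 1631 in NC. It did not overlap either group, with a log2 fold change over NC of 0.37 ± 0.12 and a limma adjusted p of 0.190. PPAN had 363, 250.3 and 359 normalized reads in ORF, 273, 384 and 295 in libraries labelled MT, and 275, 263 and 242 in NC. PPAN shares its locus and strand with P2RY11 and the readthrough gene PPAN-P2RY11, and the authors' counting could have split its reads. NOP2 had 28.2 to 39.2 normalized reads in ORF, 20.9 to 45.3 in libraries labelled MT and 21.1 to 40.2 in NC. A gene listed as AC006064.6 overlaps NOP2 on its strand, and the retention event of 1 NOP2 intron alone had 1004 reads in ORF and 925 in NC, so the gene-level value of NOP2 does not stand for its RNA. NOP2 was nevertheless kept in all counts and medians of members, role groups, GC sets and promoter sets. RRS1 and NOP16 stood at 0.22 ± 0.15 and 0.39 ± 0.16 over NC.

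RNA polymerase I transcription factors were all positive in ORF over NC, with a median of 0.28. POLR1A, the largest subunit of the polymerase (chr2:86020216-86106155), had 5079, 3994 and 4822 normalized reads in ORF, 3387, 3935 and 3512 in libraries labelled MT, and 3637, 3576 and 3379.6 in NC. Every ORF library was above every other library, with a log2 fold change over NC of 0.38 ± 0.13 and a limma adjusted p of 0.206. The second subunit POLR1B stood at 0.18 ± 0.12, the promoter factor UBTF at 0.30 ± 0.15 and the nucleolar coregulator MYBBP1A, the highest of the group per kb, at 0.26 ± 0.15. MYBBP1A had 4991, 3349 and 4518 normalized reads in ORF, 3423, 4338 and 3383 in libraries labelled MT, and 3684, 3651 and 3249.8 in NC, so ORF overlapped both.

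The snoRNP genes divided. NOP56, a core protein of the box C/D snoRNPs that direct ribose methylation, had 10728, 8537 and 10320.5 normalized reads in ORF, 7143, 7636 and 7677 in libraries labelled MT, and 7778, 7606 and 6762 in NC. Every ORF library was above every other library, with a log2 fold change over NC of 0.41 ± 0.13 (limma adjusted p 0.194). Its partner NOP58 had 1169, 2126 and 1955 normalized reads in ORF, 1511, 1309 and 1562 in libraries labelled MT, and 1714, 1582 and 1832 in NC. ORF replicate 1 was the lowest of the 9 libraries and the log2 fold change over NC was -0.01 ± 0.20. FBL, the methyltransferase of the same particles, had 13012, 8856 and 9673 normalized reads in ORF, 9218, 12826 and 8941 in libraries labelled MT, and 9651, 9960.3 and 8234 in NC. FBL was the highest of the snoRNP group per kb, and its groups overlapped (0.16 ± 0.16). NHP2, of the box H/ACA particles that make pseudouridine, had 4723, 2969 and 3466 normalized reads in ORF, 3255, 4809 and 3183 in libraries labelled MT, and 3301, 3472 and 2606 in NC. DKC1, the pseudouridine synthase, and the chaperone NOLC1 stood at 0.16 ± 0.12 and 0.19 ± 0.13 over NC. Small RNA genes lie on the same strand within NOP56, NOP58, DKC1 and GNL3, several of them snoRNAs, which an unstated counting rule could add or leave out.

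The nucleolar proteins NCL, NPM1, GNL3 and LYAR had a median log2 fold change of 0.01 in ORF over NC. NCL, nucleolin, had 22130.1, 27481 and 28002 normalized reads in ORF, 22024, 20875 and 23699 in libraries labelled MT, and 25585, 25917 and 24096 in NC. NPM1, nucleophosmin, had 18802, 26288 and 25293 normalized reads in ORF, 22029.7, 19254 and 21274 in libraries labelled MT, and 23533, 23355 and 22928 in NC. Its level had the highest mean of all members per kb in each group, although ODC1 lay within its spread in ORF, at 6129 ± 1062 normalized reads per kb in ORF, 5447 ± 375 in libraries labelled MT and 6079.5 ± 81.2 in NC (SD, n = 3 each). Its 14 named pseudogenes held reads equal to 3.69% of those of NPM1. GNL3, nucleostemin, had 1937, 3183 and 2712 normalized reads in ORF, 2839.5, 2236 and 3115 in libraries labelled MT, and 3172, 2799 and 3256 in NC. It had the lowest member log2 fold change in ORF over NC, -0.27 ± 0.17 (limma adjusted p 0.470).

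**Figure D3:**
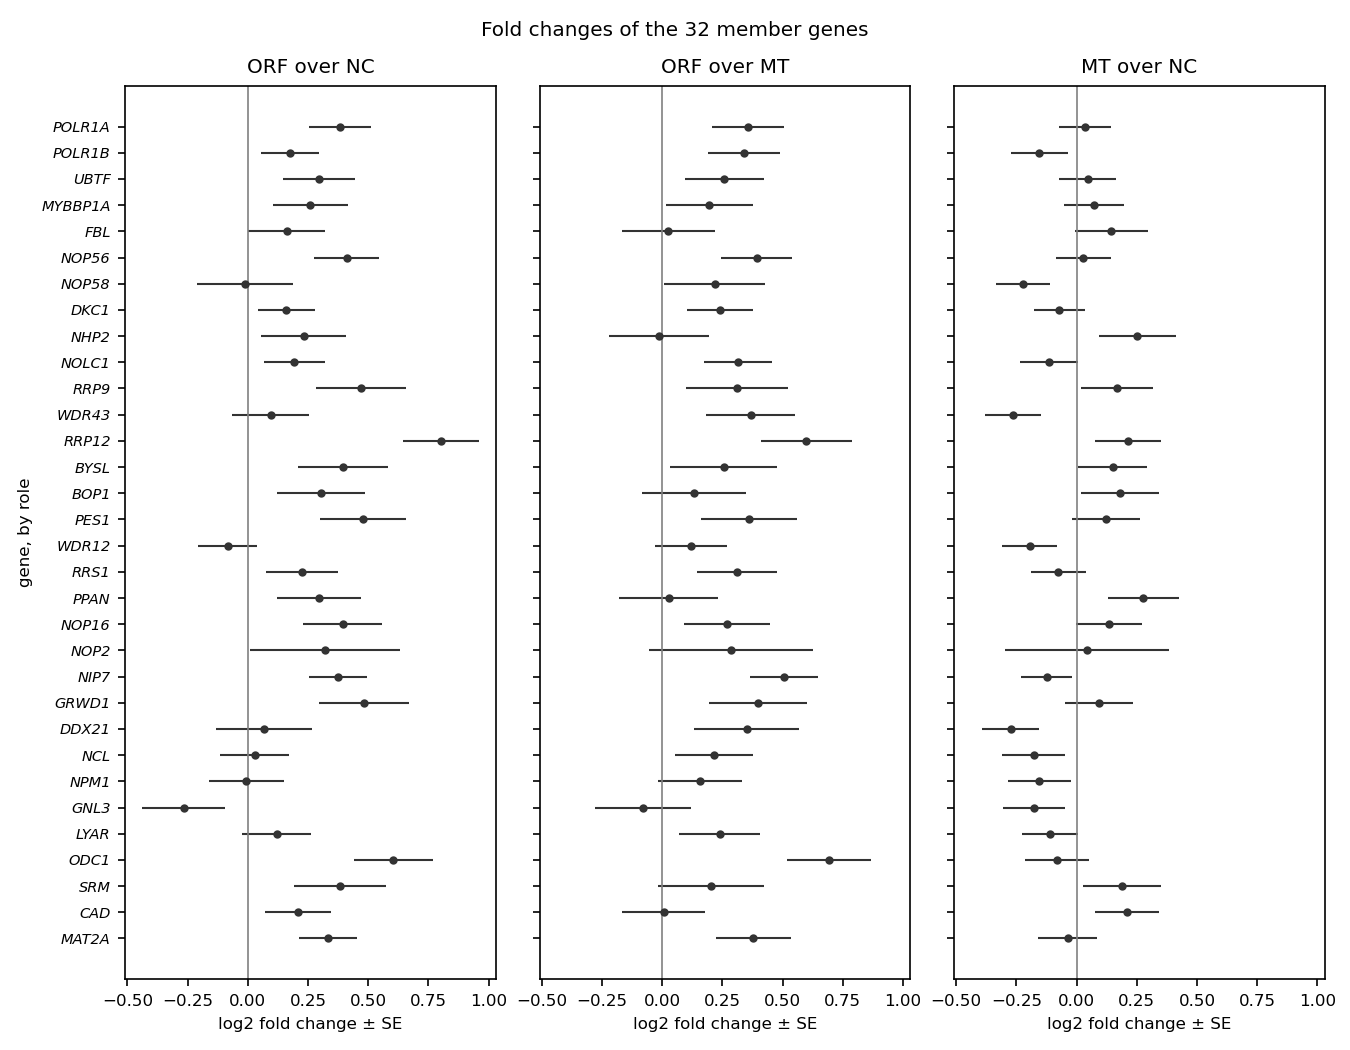
Log2 fold change (points) with its standard error (lines) of each member gene, for ORF over NC, ORF over MT as labelled, and MT as labelled over NC. The values lie mostly right of 0 in both ORF panels, with medians of 0.28 and 0.26, and on both sides of 0 for MT over NC, with a median of 0.03.

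Of the 32 members, 8 did not overlap NC from above in ORF (DKC1, MAT2A, NIP7, NOLC1, NOP56, ODC1, POLR1A, RRP12) and 0 did so from below, beside 11.5% and 10.1% of all genes. These 8 were named after their values were seen. RRP12 and ODC1 passed as higher with DESeq2 and in the authors' deposited table. Each of these called 388 of 30973 genes (1.25%) higher, with near-identical values for RRP12 and ODC1, so they are not separate evidence. RRP12 and ODC1 also passed with quantile normalization, where 0.689% of all genes were called higher. RRP12 alone passed with all 9 libraries in 1 limma fit, where 0.652% were.

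Setting ORF against the libraries labelled MT asks for differences from cells that, by their label only, received another construct. As given above, these libraries showed no more LINC00266-1 reads than NC, so the reads do not show that construct. It gave values of like size: 30 of 32 members were positive and the median was 0.26, against 46.9% and -0.03 over all genes. None passed limma at an adjusted p below 0.05, where 0.266% of all genes were called higher. ODC1 was highest, at 0.69 ± 0.17 (1.62-fold, limma adjusted p 0.131), then RRP12 at 0.60 ± 0.19 and NIP7 at 0.51 ± 0.14. In ORF 8 members did not overlap the libraries labelled MT from above (DKC1, MAT2A, NIP7, NOLC1, NOP56, ODC1, POLR1A, POLR1B) and 0 did so from below, beside 9.88% and 9.6% of all genes. NIP7 and ODC1 passed as higher with DESeq2 (0.865% of all genes) and with all 9 libraries in 1 limma fit (0.9%), ODC1 with quantile normalization (0.41%), and DDX21 with ORF replicate 1 left out (0.965%). This comparison shares its ORF libraries with ORF over NC, so the 2 are not separate evidence.

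The libraries labelled MT against NC showed members on both sides of 0. This comparison shares its NC libraries with ORF over NC and its MT libraries with ORF over MT. The median was 0.03, against 0.01 over all 25310 genes, with 17 members positive (51.5% of all genes were) and 15 negative. No member was called. Of all genes, limma called 0 (0%), edgeR 0 and DESeq2 1 (0.00322%). At an unadjusted limma p below 0.05, 0 members were higher and 2, WDR43 and DDX21, were lower, beside 2.32% and 2.35% of all genes, or 1183 genes in all. PPAN (0.28 ± 0.15), NHP2 (0.25 ± 0.16) and RRP12 (0.21 ± 0.14) were highest. DDX21 (-0.27 ± 0.12), WDR43 (-0.26 ± 0.12) and NOP58 (-0.22 ± 0.11) were lowest. In the libraries labelled MT, 6 members lay below all NC libraries (DDX21, NCL, NOP58, NPM1, WDR12, WDR43) and 0 above, beside 6.72% and 5.7% of all genes.

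Member fold changes went with GC content, the share of G and C bases in a gene's exons. Across the 32 members the log2 fold change of MT as labelled over NC had a Pearson correlation of 0.905 with the GC content of the exons, against 0.545 over 15976 genes. The correlation was 0.65 for ORF over NC, against 0.182 over 15600 genes, and -0.06 for ORF over MT, against -0.14 over 15674 genes, each across genes that share the same libraries and are not independent. Among replicates of 1 group, deviations from the group mean correlated with GC at 0.645 in ORF replicate 1 and -0.563 in ORF replicate 2 over 15942 genes. Replicate 2 labelled MT stood at 0.587.

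The 16 members of higher GC content (54.1% to 65.2%) had a median log2 level above the NC mean of 0.61 in ORF replicate 1, -0.0054 in replicate 2 and 0.42 in replicate 3. The 16 of lower GC content (40.2% to 51.7%) had -0.04, 0.21 and 0.27 in the same order. In replicate 2 labelled MT the medians were 0.48 for the higher and -0.28 for the lower GC genes.

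With GC content and gene length adjusted for in each library, the median in ORF over NC was 0.21. Under this adjustment 11 members passed limma as higher (BOP1, GRWD1, MAT2A, NIP7, NOP56, ODC1, PES1, POLR1A, RRP12, RRP9, SRM) and 0 as lower, where 5.04% of all genes were called higher. In ORF over MT 8 passed as higher, where 3.81% of all genes did, and in MT over NC 0 did. Under the adjustment the correlation with GC was 0.476 for ORF over NC, 0.308 for ORF over MT and 0.428 for MT over NC. Without any adjustment, but leaving out ORF replicate 2, 10 members passed in ORF over NC, where 3.61% of all genes were called higher, and 2 (NIP7, RRP12) passed when ORF replicate 1 was left out, where 1.82% were. The part of GC content in these results was not tested beyond the adjustment.

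**Figure D4:**
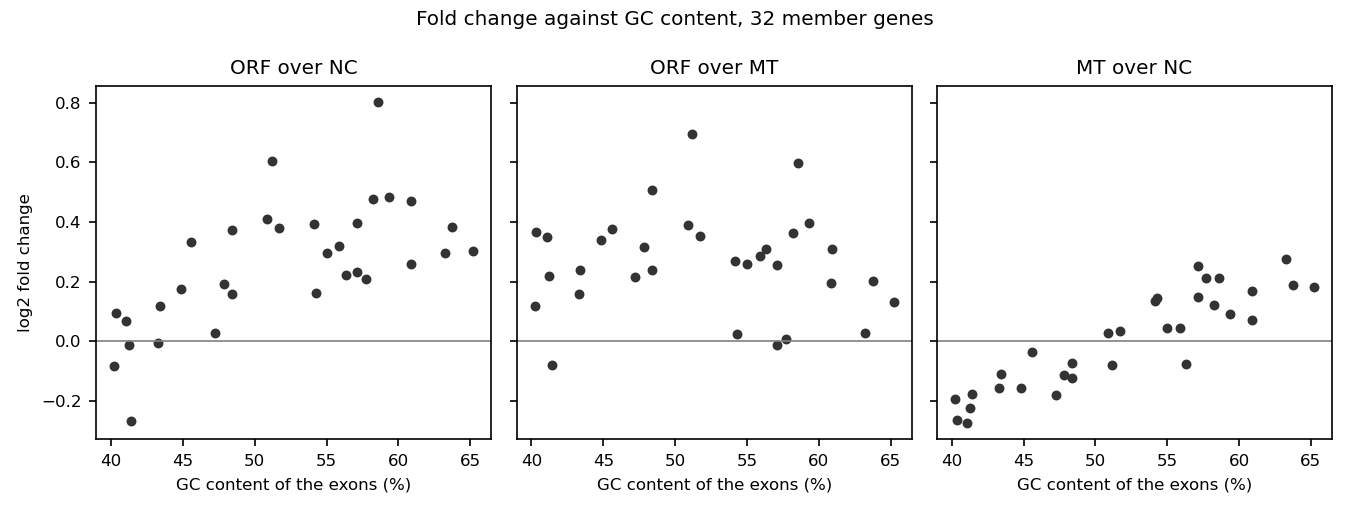
Log2 fold change of each of the 32 member genes (points) against the GC content of the exons of its longest transcript in percent. Panels show ORF over NC, ORF over MT as labelled, and MT as labelled over NC. The points climb with GC content in the panels against NC (Pearson correlation 0.65 and 0.905) and show no such slope for ORF over MT (-0.06).

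The median log2 fold change in ORF over NC was 0.29 for the 12 members with CACGTG and 0.29 for the 15 without it. Their median exon GC content was 55.1% with the motif and 50.9% without it, and the difference between the sets was not tested. The range was -0.27 to 0.60 with the motif and -0.08 to 0.48 without it.

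Companion genes of the same pathways, outside the 32 members, were counted in 5 lists of 165 genes in all. None passed limma at an adjusted p below 0.05 in any of the 3 comparisons. Their median was 0.20 in ORF over NC, 0.22 in ORF over MT and -0.06 in MT over NC. In ORF over NC the large subunit list of 49 genes ran from SDAD1 at -0.30 ± 0.21 to SBDS at 0.67 ± 0.14 (limma adjusted p 0.069). SBDS releases a factor from the large subunit and has a near-identical pseudogene, so its reads are uncertain. The small subunit list of 50 genes ran from the helicase DDX47 at -0.41 ± 0.40 to the helicase DDX49 at 0.67 ± 0.18. The RNA polymerase I list of 18 genes ran from TAF1A at -0.09 ± 0.20 to CD3EAP at 0.41 ± 0.17. The snoRNP list of 13 genes ran from RPAP3 at -0.22 ± 0.25 to SNU13 at 0.36 ± 0.16. The list of 35 MYC targets ran from AMD1 at -0.30 ± 0.19 to the amino acid transporter SLC7A5 at 0.63 ± 0.20. E-boxes occurred in 31.9% of the 138 companions with a promoter window.

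Splicing was read from the junction reads of the deposited splicing tables, in which the members have 304 events with ORF and 214 with MT. Per-library reads could be recovered for 161 and 131 of them, a lower share than the 79.79% and 80.64% of all events. Recovery was lowest for skipped exons, 85 of 217 with ORF and 77 of 153 with MT. Commas were lost in cells with large read numbers, so the member events left out tend to have many reads, and they were not tested. No member event was called in any comparison at a limma adjusted p below 0.05 with an inclusion level difference of at least 0.05. The events tested numbered 60 for ORF against NC, 37 for ORF against MT and 37 for MT against NC, where 0.0603%, 0.0679% and 0.0136% of all events were called. At an unadjusted limma p below 0.05 there were 0, 1 and 1 member events in the same order, beside 8.43%, 9.02% and 5.13% of all events. The authors' deposited table calls 3 skipped-exon events of NPM1 for ORF, on 2 exons, and 1 event for MT, beside 6.24% and 5.06% of all events, but each rests on few reads, with 29 to 36 reads over the 3 ORF libraries and 16 to 19 over the NC libraries, and 1 read in MT against 18 in NC.

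MAT2A is known to regulate its RNA by keeping introns. The only MAT2A intron tested is given in full, and whether it is the regulated one was not tested. It is intron chr2:85542374-85542564 (191 bases, plus strand, GRCh38), between exon 6 and exon 7 of 9 of transcript MAT2A-201. Its ends are shown with the GT and AG of the intron in capitals, read from GENCODE 29 transcripts.
MAT2A intron 5′ end: tgggcctcagGTaatgtcattttgttgcat
MAT2A intron 3′ end: cttaaatcctgtaatttcAGggtgatgctg
Retention was 6.07%, 13.7% and 6.72% in ORF, 17.8%, 13.1% and 19.4% in libraries labelled MT, and 12.1%, 10.5% and 18.2% in NC. In ORF 2 of the 3 libraries were below all others and the remaining one lay among them. Mean retention was 8.83% ± 4.23 in ORF, 16.8% ± 3.28 in libraries labelled MT and 13.6% ± 4.08 in NC (SD, n = 3 each). ORF over MT had an unadjusted limma p of 0.037 and an adjusted p of 0.307, and ORF over NC an adjusted p of 0.469.

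UBTF, known in a long and a short protein form that differ by an exon, was looked at after its values were seen. The skipped exon is chr17:44212344-44212454 (111 bases, minus strand), exon 8 of 21 of transcript UBTF-201, and its ends are shown as the stretch whose use was measured.
UBTF exon start: gccactacgaaggaggtgaaggactccctg
UBTF exon end: aaggccctggagcagcggaaggagtacgag
Its inclusion was 49.6%, 47.8% and 49.5% in ORF, 42.1%, 45.9% and 48.3% in libraries labelled MT, and 40.9%, 47.1% and 40.2% in NC. All ORF libraries were above all NC libraries, by a mean of 6.22 percentage points, with a limma p of 0.071 and an adjusted p of 0.543.

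Member introns had lower mean retention in ORF than in NC about as often as introns in general. Of 16 member introns with enough reads, 11 were lower in ORF, where 67.5% of all such introns were. Retention did not overlap and was lower in ORF for 4 (DKC1, FBL, NCL, NOP56), where 14.2% of all introns did so, and 0 were higher without overlap, where 3.7% of all were. All 4 fell below the level filter of 0.05 and were not in the main test of ORF against NC. Levels were near 0 for FBL, at 0.07%, 0.17% and 0.17% in ORF and 0.36%, 0.26% and 0.33% in NC. The NCL intron had 0.38%, 0.53% and 0.52% in ORF and 0.66%, 0.55% and 0.98% in NC. The NOP56 intron chr20:2657219-2657928 had 3.39%, 4.21% and 3.19% retention in ORF, 6.23%, 5.31% and 6.65% in libraries labelled MT, and 4.41%, 4.59% and 5.97% in NC. The DKC1 intron had 2.27%, 1.72% and 1.68% in ORF, 3.87%, 2.94% and 5.97% in libraries labelled MT, and 3.34%, 3.41% and 3.52% in NC. In MT against NC 13 of 18 introns had a higher mean retention in MT, where 49.6% of all introns did, and 0 were higher or lower without overlap, where 4.3% and 3.86% of all were. These introns were named after their values were seen, and none was called, also without the filter on inclusion level.

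**Figure D5:**
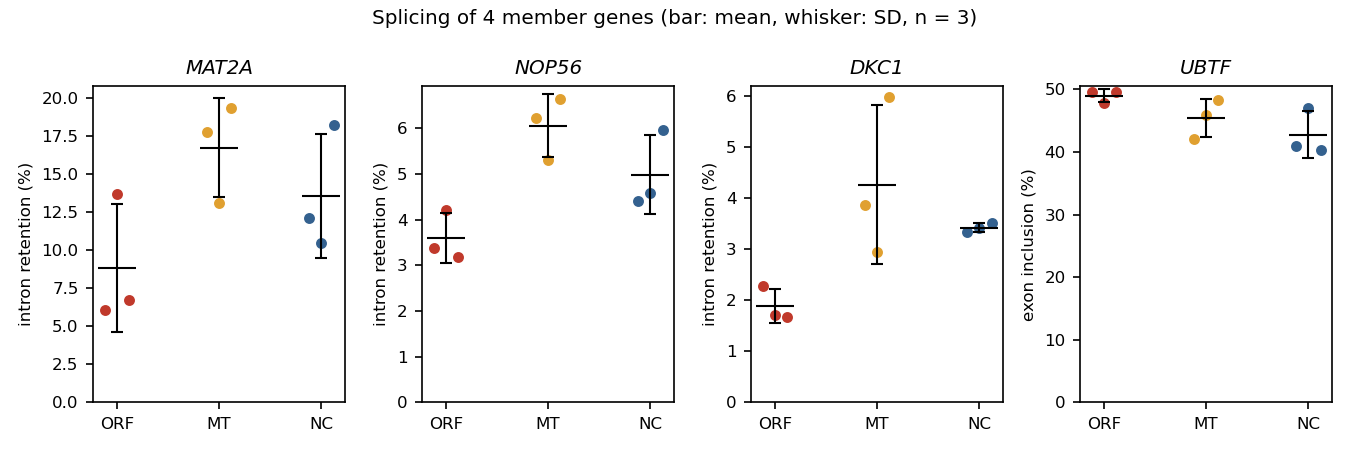
Retention of 1 intron each of MAT2A, NOP56 and DKC1 and inclusion of 1 exon of UBTF, in percent, in each library (points) with the mean (bar) and SD (whisker) of the 3 libraries of ORF, MT as labelled, and NC. The ORF points of NOP56 and DKC1 lie below all NC points, while 1 MAT2A point of ORF, at 13.7%, lies among the NC points.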

How the data were processed

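Illumina libraries were made from Trizol-extracted RNA of 9 HCT-116 samples, per the labels. The submitters' processing notes name GRCh38 and hg38. Aligner, counter, annotation release, strand setting and the authors' tests: not given in the sources used here. Members and gene lists were chosen with earlier results of these data known.

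The deposited gene tables hold a normalized signal per library, whole reads divided by a size factor set in each table (100% of values within 0.1 of a whole read). The authors' fold changes are log2 values and their p-value columns hold p and adjusted p. The deposited splicing tables hold reads, inclusion levels and effective lengths. Commas between libraries were lost in many cells, and splits were accepted where levels matched within 0.001, which recovered 79.79% of ORF and 80.64% of MT events.

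Genes were tested with limma 3.58.1 (R 4.3.3, trended eBayes) on log2(value + 1) where 3 or more libraries had a value of at least 1, with Benjamini-Hochberg adjustment over all genes and a threshold of 0.05. Each comparison against NC was fitted in its own table. ORF with MT used recovered reads under median-of-ratios factors over all 9 libraries, as did printed normalized reads. Fold changes are on the log2(value + 1) scale. Splicing was tested with limma on log2 odds of inclusion (pseudocount 0.5, a mean of 20 reads per group, levels of 0.05 to 0.95), adjusted within each of 5 event types. Retained introns were counted with at least 60 reads per group. Of 200 simulated changed genes, limma recovered 87 of 100 at 2-fold and 100 of 100 at 4-fold for ORF with NC, over 26343 genes. The simulated counts held no GC-related deviations between libraries, so recovery in the real libraries may be lower. Alternatives used edgeR 4.0.16 and DESeq2 1.42.0 on recovered reads. Gene positions are from GENCODE 29, promoters from RefSeq.

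Values per library were printed for the 3 highest and 3 lowest members by log2 fold change in ORF over NC and in MT over NC, and for the highest member of each of 6 roles by mean normalized reads. The highest per kb in each role, NIP7 and NOP56 were added after values were seen. MAT2A introns and events the authors called were named, and companions at the ends of each list.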

Additional observations from a re-analysis of the deposited data

How the results depend on the processing

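The member median kept its sign in ORF over NC and in ORF over MT under every alternative run. For MT over NC the member median of 0.031 ranged from -0.048 with quantile normalization to 0.072, and was also negative with the GC and length adjustment (-0.037) and without MT replicate 2, MT replicate 3 or NC replicate 3 (lowest -0.030). Members called in ORF over NC numbered 2 with DESeq2, 2 with quantile normalization, 1 with all 9 libraries in the fit, 1 with the replicate block (0.888% of all genes were higher), 11 with the GC and length adjustment and 10 with that adjustment and the block (5.35% of all genes), against 0 in limma. Companions called in ORF over NC numbered 9, 1, 1, 1, 33 and 37 in the same settings. Leaving out 1 replicate gave 0 to 10 members and 0 to 26 companions. Members called in ORF over MT numbered 2 with DESeq2, 1 with quantile normalization, 2 with all 9 libraries, 8 with the GC and length adjustment and 4 with the block added (1.98% of all genes), and 0 to 1 without 1 replicate. Companions in ORF over MT numbered 6, 1, 5, 34 and 14, and 0 to 8 without 1 replicate. No member or companion was called in MT over NC by any alternative. Of all genes in MT over NC, 35 (0.138%) were called with the block. With the adjustment and the block 47 (0.186%) were. The authors' deposited FDR calls 3 member splicing events in ORF and 1 in MT. The cause of these changes was not tested.

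Signs changed as follows among the 32 members, and none of these values passed the test. With quantile normalization in ORF over NC, FBL was -0.062, NOLC1 -0.012, WDR43 -0.012, DDX21 -0.076 and NCL -0.12. NOP58 was 0.012 with edgeR under TMM, 0.023 under RLE and 0.032 with DESeq2, and NPM1 was 0.0091 with DESeq2. With the GC and length adjustment, with or without the block, NOP58 was 0.042, WDR12 0.10 and NPM1 0.0041. In MT over NC with quantile normalization, POLR1A was -0.043, UBTF -0.033, MYBBP1A -0.0076 and NOP56 -0.053. With the adjustment, with or without the block, UBTF was -0.055, MYBBP1A -0.085, NOP56 -0.011, RRP9 -0.0078, BYSL -0.0071, PES1 -0.027, NOP2 -0.078, GRWD1 -0.060 and MAT2A 0.017, and 10 of the 32 members were positive. In ORF over MT, FBL was -0.11 and CAD -0.086 with quantile normalization, CAD was -0.016 under TMM and -0.0042 under RLE, and NHP2 was 0.011 with the adjustment, with or without the block. Without 1 replicate, the range in ORF over NC was -0.18 to 0.26 for NOP58, -0.0065 to 0.29 for WDR43, -0.073 to 0.34 for DDX21, -0.034 to 0.14 for NCL and -0.098 to 0.15 for NPM1. In MT over NC it was -0.031 to 0.082 for POLR1A, -0.043 to 0.10 for UBTF, -0.048 to 0.14 for MYBBP1A, -0.025 to 0.24 for FBL, -0.034 to 0.066 for NOP56, -0.0099 to 0.27 for RRP9, -0.034 to 0.26 for BYSL, -0.0095 to 0.30 for BOP1, -0.021 to 0.20 for PES1, -0.29 to 0.32 for NOP2, -0.052 to 0.17 for GRWD1, -0.0084 to 0.29 for SRM and -0.11 to 0.084 for MAT2A. In ORF over MT it was -0.14 to 0.19 for FBL, -0.20 to 0.18 for NHP2, -0.061 to 0.32 for BOP1, -0.075 to 0.20 for PPAN, -0.24 to 0.12 for GNL3 and -0.10 to 0.15 for CAD.

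Correlations of same-numbered deviations could not settle whether replicate numbers pair the samples, since the deviations also went with GC content. They were 0.136, -0.335 and 0.120 for ORF with NC and -0.118, 0.319 and 0.309 for MT with NC. Between ORF and MT libraries they were -0.379, -0.494 and 0.183. The block alone added RRP12 in ORF over NC; joined to the adjustment it left out BOP1 in ORF over NC and NOP56, PES1, POLR1A and RRP9 in ORF over MT. No paired analysis was possible for splicing because the cells list 3 libraries without replicate numbers. No member splicing event was called without 1 library, with a pseudocount of 1, with a mean of 10 reads, or without the filter on inclusion level, an alternative chosen after seeing the data. Simulated 2-fold changes were recovered in 87 of 100 genes for ORF with NC, without the GC-related deviations of the real libraries. No change below 2-fold was simulated, and the largest member change in the main fits was 1.74-fold (RRP12 in ORF over NC). The recovery of changes of member size is therefore not known.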
